A study of Mus musculus with 16 samples.

Results

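The genes described here encode the maternal factors that write, copy, protect and remove DNA methylation around fertilisation: Dnmt1, Dnmt3a, Dnmt3b, Dnmt3l, Uhrf1, Tet3, Dppa3, Zfp57, Trim28 and Kdm1b. They were found by gene name in an RNA-seq table of mouse oocytes and eggs, and these 10 genes are among 27987 gene names. They account for 13 of its 28618 entries, because Zfp57 is listed in 4 entries and each of the other genes in 1. The 16 libraries fall into 4 groups of 4. GV oocytes, fully grown and still in prophase of meiosis I, and ovulated eggs labelled MII were each taken from WT females and from Psma7 cKO females. The paper reports that some ovulated Psma7 cKO oocytes were arrested before completing meiosis I, and some at the GV stage. Whether the Psma7 cKO egg libraries hold such cells is not given in the sources used here. WT is labelled wildtype, and cKO is labelled Zp3-Cre; Psma7 flox/flox, so that Cre is expressed in growing oocytes and the gene for a subunit of the proteasome core is deleted there while follicle cells keep it. Females of both genotypes were 3 to 4 weeks old and all had received 5 IU PMSG, a hormone that drives follicle growth. GV oocytes were taken 44 h after PMSG, and eggs 14 to 16 h after hCG, which triggers ovulation, with cumulus cells removed in 0.3% hyaluronidase. The labels give 5 oocytes per library, although the study's methods give another pool size, and the RNA of a library is therefore the sum of several cells. Values are FPKM, the fragments of a transcript divided by its length and by the fragments of the whole library, and are thus shares of a library of polyadenylated RNA and not amounts per cell.

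In growing oocytes, DNMT3A and its catalytically inactive partner DNMT3L lay down DNA methylation, and KDM1B clears methylated histone H3 from chromatin that DNMT3A would otherwise avoid. DNMT1, guided by UHRF1, copies methylation at replication, while DPPA3 (also called STELLA) keeps UHRF1 out of the oocyte nucleus and shields the maternal genome from TET3, the enzyme that oxidises methylated cytosine after fertilisation. ZFP57 binds methylated imprinted regions and recruits TRIM28, which holds them in their methylated state in the embryo. As the oocyte matures transcription is off, and stored mRNAs are degraded or have their poly(A) tails lengthened or shortened.

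On mm10 (GRCm38), Dnmt1 lies on the minus strand at chr9:20907209-20959888, Dnmt3a on the plus strand at chr12:3806007-3914443, Dnmt3b on the plus strand at chr2:153649450-153687730 and Dnmt3l on the plus strand at chr10:78041947-78063622. Uhrf1 is at chr17:56303321-56323486 and Zfp57 at chr17:37001163-37010635, both on the plus strand. Tet3 (minus strand, chr6:83362373-83459084) and Dppa3 (plus strand, chr6:122626410-122630272) share a chromosome, Kdm1b lies at chr13:47043499-47085279 and Trim28 at chr7:12999114-13031035, both on the plus strand. All 10 are annotated as protein coding.

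Estimated depth was 10.5 to 15.6 M fragments per library. The deleted gene, Psma7, averaged 165 ± 25.3 FPKM (mean ± SD, n = 4 here and below) in WT against 14.6 ± 2.82 in Psma7 cKO at the GV stage, and 126 ± 32.1 against 39.7 ± 20.2 at the MII stage, with no overlap at either. The 12 entries of an oocyte marker list summed to between 13300 and 18800 FPKM in every library. Of 17 cumulus and granulosa markers, Foxl2, Amh, Ptx3 and Tnfaip6 were at or near 0, and the list summed to 18.2 to 24.3 FPKM per library, mainly from Cyp19a1, Kitl and Nr5a2. On the first principal component of all transcripts other than these 10 genes, WT eggs lay at 98.2 to 101.6% of the way from the WT GV mean to the WT egg mean, whereas Psma7 cKO eggs lay at 82.6, 92.0, 62.1 and 80.1% (replicates 1 to 4). One WT GV library, replicate 3, stood 6.5% of the way towards eggs.

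These transcripts spanned a wide range of levels, and their order differed between stages. In WT GV oocytes Dppa3 was highest, at 370 ± 61.7 FPKM and in the top 0.507% of entries, followed by Dnmt1 at 221 ± 17.1 and Uhrf1 at 100.5 ± 14.5. None of the libraries of one of these genes reached those of the next. Kdm1b (57.3 ± 15.4 FPKM) and Tet3 (38.2 ± 5.60) overlapped, as did Dnmt3l (19.8 ± 4.36) and Trim28 (17.6 ± 1.61), and Dnmt3a (13.3 ± 1.65) and the most abundant Zfp57 entry (13.1 ± 2.53). Dnmt3b, the methyltransferase that is used mainly after implantation, was lowest of the single-entry genes at 2.80 ± 0.637 FPKM. In WT eggs Dppa3 (653 ± 94.8 FPKM) and Dnmt1 (239 ± 31.8) remained the highest, but Tet3 (84.5 ± 9.61) had moved up beside Uhrf1 (78.4 ± 9.27) and Trim28 (22.4 ± 2.89) had passed Kdm1b (18.0 ± 1.24). Zfp57 entry 1, Dnmt3l, Dnmt3a and Zfp57 entry 2 overlapped with their neighbours between 5.03 and 7.84 FPKM, and Dnmt3b was again the lowest of the single-entry genes, at 1.54 ± 0.102.

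**Figure D1:**
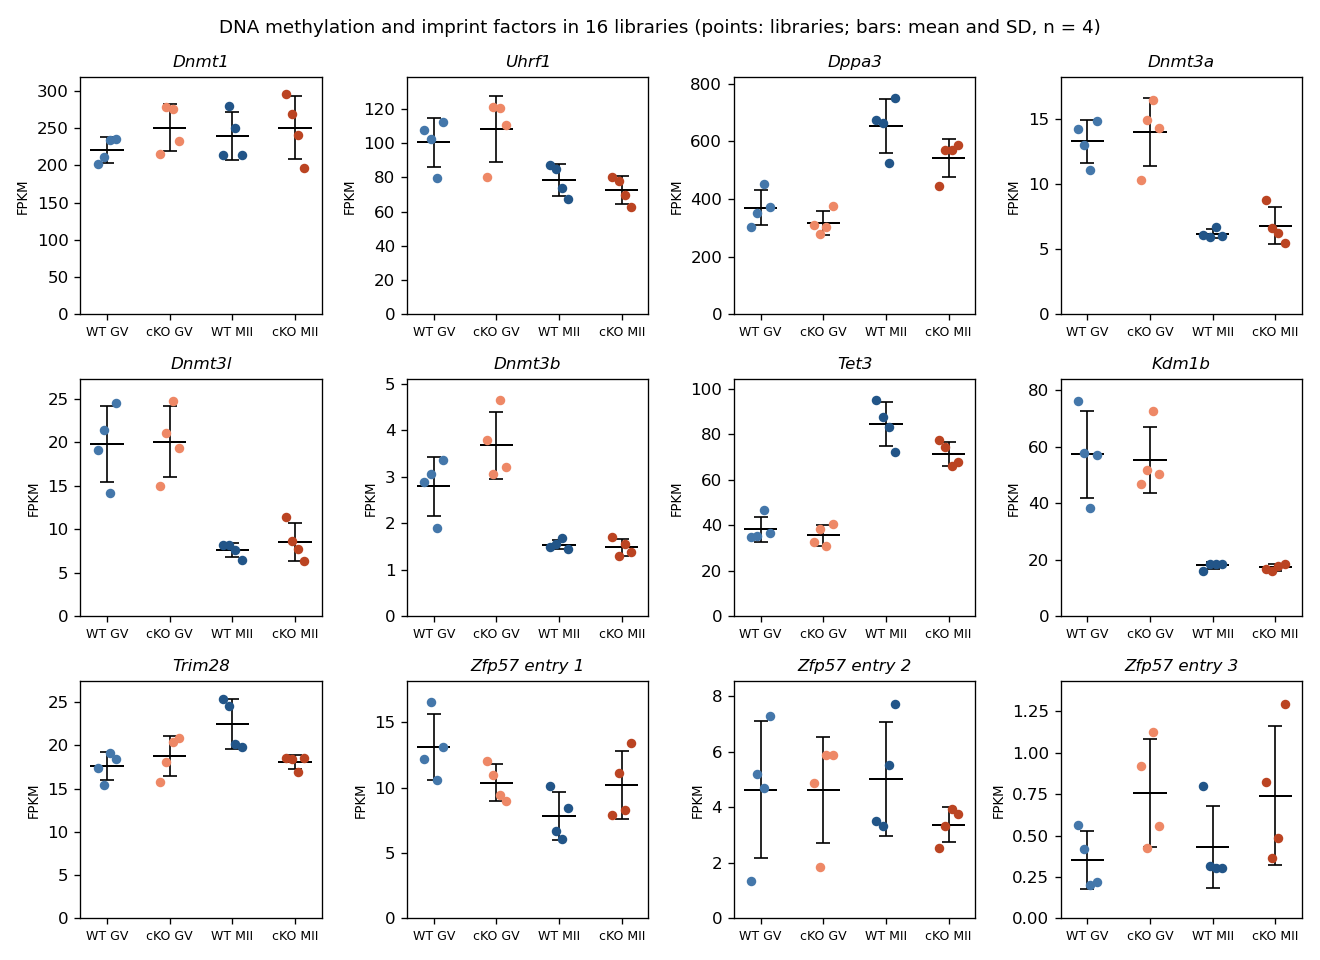
FPKM of each gene (y axis of each panel, from 0) in WT GV oocytes, Psma7 cKO GV oocytes, WT eggs and Psma7 cKO eggs (x axis). Each point is a library and bars show mean and SD (n = 4). Tet3 and Dppa3 are higher, and Dnmt3a, Dnmt3l, Dnmt3b and Kdm1b lower, in eggs of both genotypes, while points of the 2 genotypes intermingle within a stage for most genes.

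The first question was how each transcript's share of the library changed from GV oocyte to egg in WT. Tet3 and Dppa3 rose, the de novo methyltransferases and Kdm1b fell, and Dnmt1 was not called. Of the 13 entries 11 reached a mean of 1 FPKM and were tested with limma on log2 of floored FPKM. At a Benjamini-Hochberg adjusted p under 0.05, 3 of these 11 were higher in eggs and 6 lower, where 26.1% of all 10475 transcripts tested were higher and 52.4% lower. The median log2 change of all transcripts was −0.44, and changes of the genes are to be read against it. When libraries were instead scaled to a common median of expressed transcripts, that median rose by 0.226 in WT and 0.25 in Psma7 cKO.

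Among the de novo methyltransferases, Dnmt3a was at 14.2, 13.0, 11.1 and 14.9 FPKM in the WT GV libraries (replicates 1 to 4) and at 6.09, 5.95, 6.72 and 5.99 in WT eggs. Every egg library lay well below every GV library, a log2 change of −1.10 ± 0.12 (SE) with an adjusted p of 6.44e-06 (limma). Dnmt3l, its cofactor, was at 19.1, 21.5, 14.2 and 24.5 FPKM in GV oocytes and 8.24, 8.22, 7.61 and 6.48 in eggs, a change of −1.35 ± 0.16 (adjusted p = 1.85e-05, limma). Dnmt3b started low, at 2.88, 3.05, 1.89 and 3.36 FPKM, and reached 1.49, 1.55, 1.68 and 1.45 in eggs, a change of −0.83 ± 0.18 (adjusted p = 0.00144, limma). Its egg values stand close to the floor of 1 FPKM, although none lay under it, the lowest of all 16 libraries being at 1.30. Of all transcripts tested, 32.5% had a more negative change than Dnmt3a, 26.6% a more negative one than Dnmt3l and 39.4% than Dnmt3b.

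Kdm1b, which prepares chromatin for these enzymes, fell furthest. It was at 76.1, 57.8, 38.4 and 57.0 FPKM in WT GV oocytes and at 16.1, 18.6, 18.6 and 18.6 in WT eggs. The egg libraries agreed closely with each other while the GV libraries were spread, with replicate 3 lowest. The log2 change was −1.63 ± 0.17 (adjusted p = 6.44e-06, limma), and the egg mean was 31.4% of the GV mean. Kdm1b was the only one of the genes whose means differed more than 3-fold in a maturation comparison, a size of fall seen for 22.1% of transcripts in WT and 17.2% in Psma7 cKO.

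Tet3 showed the largest rise of the genes. It was at 34.6, 35.1, 46.5 and 36.5 FPKM in WT GV oocytes and at 95.1, 87.7, 83.2 and 72.1 in WT eggs. The groups were far apart, and the highest GV library was the one that stood towards eggs over all other transcripts. Its log2 change of 1.15 ± 0.12 (adjusted p = 5e-06, limma) exceeded that of 94.7% of transcripts tested. For Dppa3 the GV libraries were at 304, 350, 452 and 374 FPKM and the eggs at 673, 664, 524 and 752, a change of 0.82 ± 0.14 (adjusted p = 0.000219, limma). Again no egg library reached down to a GV library, although replicate 3 was the highest in GV oocytes and replicate 3 the lowest in eggs.

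The maintenance pair moved little by comparison. Dnmt1 was at 202, 211, 234 and 236 FPKM in WT GV oocytes and at 214, 280, 250 and 214 in WT eggs, overlapping groups with a log2 change of 0.11 (95% interval −0.12 to 0.34, adjusted p = 0.336, limma). Set against the falling median of all transcripts, 67.0% of transcripts had a lower change than Dnmt1. When libraries were scaled to a common median, Dnmt1 was called higher, by 0.33 (adjusted p = 0.0151, limma). Uhrf1 was at 107.8, 102.4, 79.6 and 112.3 FPKM in GV oocytes and at 87.1, 85.0, 73.8 and 67.6 in eggs. Its change was called at an adjusted p of 0.0215 (−0.36 ± 0.12, limma), but the groups overlapped at the low GV replicate 3. Of all transcripts tested, 52.3% had a more negative change than Uhrf1. The call for Uhrf1 was lost without the filter on low values (adjusted p = 0.0740), with scaling to a common median (−0.13, adjusted p = 0.300) and without GV replicate 1 (0.0602), GV replicate 4 (0.0667), egg replicate 3 (0.0536) or egg replicate 4 (0.0608).

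For the imprint readers, Trim28 was at 17.3, 15.4, 19.1 and 18.4 FPKM in WT GV oocytes and 25.4, 24.5, 20.1 and 19.8 in WT eggs. The egg libraries all stood above the GV libraries, those of replicates 3 and 4 by little, and the rise of 0.35 ± 0.11 had an adjusted p of 0.0157 (limma) that reached 0.0537 without egg replicate 1 and 0.0501 without egg replicate 2. Zfp57 is listed as 4 entries, numbered here by falling level, and what sets the entries apart is not given in the sources used here. Entry 1 was at 12.2, 16.6, 10.6 and 13.1 FPKM in GV oocytes and 10.2, 6.68, 6.08 and 8.43 in eggs, a change of −0.75 ± 0.18 (adjusted p = 0.00302, limma). A more negative change was seen for 41.3% of transcripts tested. Entry 2 ranged from 1.33 to 7.29 FPKM in GV oocytes and from 3.32 to 7.75 in eggs, overlapping throughout (0.27, 95% interval −0.78 to 1.31, adjusted p = 0.616, limma). Entries 3 and 4 were not tested, entry 3 lying between 0.202 and 1.30 FPKM over all libraries and entry 4 at or near 0. Summed over its entries Zfp57 was at 18.1 ± 3.92 FPKM in GV oocytes and 13.3 ± 2.73 in eggs, and the summed value was called lower at an adjusted p of 0.0434 (−0.44, limma). With entries summed, the median change of all transcripts was −0.44 as well. Entry 1 made up 63.6 to 86.5% of the sum in WT GV oocytes and 51.1 to 70.1% in WT eggs.

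The same comparison in Psma7 cKO asked whether these changes also took place with Psma7 deleted in the oocyte, where its mRNA was reduced but present. There, 2 of the 11 entries tested were higher in eggs and 5 lower, beside 23% and 51% of 10748 transcripts. The split of all calls, 2472 higher and 5482 lower, became 3314 and 4574 when libraries were scaled to a common median. Tet3 went from 32.6, 38.2, 31.1 and 40.7 FPKM to 77.3, 74.3, 66.2 and 67.8, a log2 change of 1.01 ± 0.11 (adjusted p = 3.35e-05, limma). For Dppa3 the values were 310, 278, 301 and 374 FPKM in GV oocytes and 445.5, 572, 571 and 586 in eggs (0.78 ± 0.12, adjusted p = 0.000323, limma), with egg replicate 1 below the other eggs but above every GV library.

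Falls in Psma7 cKO were seen for the same methyltransferases as in WT. Dnmt3a went from 10.3, 14.9, 16.5 and 14.3 FPKM to 8.80, 6.60, 6.27 and 5.51, a change of −1.04 ± 0.19 (adjusted p = 0.000722, limma), with the lowest GV and the highest egg library both labelled replicate 1. Dnmt3l went from 15.0, 21.1, 24.8 and 19.4 to 11.5, 8.65, 7.71 and 6.32 FPKM (−1.24 ± 0.21, adjusted p = 0.000478, limma). In Dnmt3b the means were 3.67 ± 0.716 and 1.48 ± 0.183 FPKM, and the groups did not overlap (−1.30 ± 0.16, adjusted p = 8.43e-05, limma). Kdm1b went from 46.7, 51.7, 72.5 and 50.2 FPKM to 16.7, 16.0, 17.9 and 18.6, so that the egg mean was 31.3% of the GV mean, beside 31.4% in WT.

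Uhrf1 was also called lower in Psma7 cKO eggs, from 108 ± 19.2 to 72.7 ± 8.05 FPKM (−0.56 ± 0.15, adjusted p = 0.00623, limma), although GV replicate 1 at 80.4 FPKM lay within the egg range and the call was lost with scaling to a common median (−0.31, adjusted p = 0.0740). Values near 0 turned sign under that scaling for Trim28 (−0.04 against 0.21), Zfp57 entry 1 (−0.05 against 0.20) and Dnmt1 (−0.01 against 0.24), and none of these was called under either. Trim28 thus stood at 18.8 ± 2.35 FPKM in Psma7 cKO GV oocytes and 18.1 ± 0.804 in eggs, and Zfp57 entry 1 at 10.4 ± 1.41 and 10.2 ± 2.60. Zfp57 entry 2, not called with all libraries (−0.33, adjusted p = 0.423), was called lower without GV replicate 2 (−0.73, adjusted p = 0.00805, limma).

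**Figure D2:**
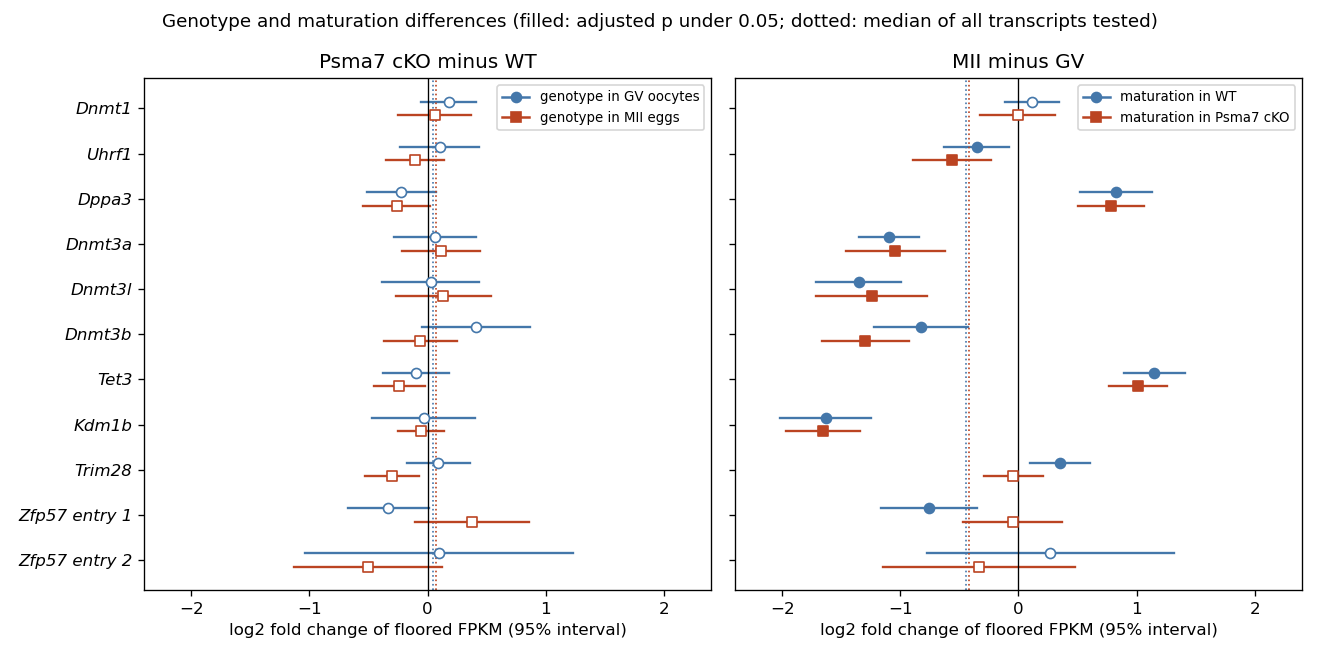
Log2 differences (x axis, with 95% intervals) of the 11 entries tested (y axis), Psma7 cKO minus WT in the left panel and MII minus GV in the right. Filled symbols have an adjusted p under 0.05 and dotted lines mark the median of all transcripts tested. All symbols are open on the left, and on the right Tet3 and Dppa3 lie above 0 and Kdm1b, Dnmt3l, Dnmt3a and Dnmt3b below it in both genotypes.

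Whether the changes differed between genotypes was tested as the genotype by stage interaction on 16 libraries. None of the 11 entries was called, beside 1.07% of 10615 transcripts with a positive interaction, 0.188% with a negative one and 1.26% either way, and at an unadjusted p under 0.05 there were 2 of 11 beside 17.7%. These were Trim28, whose change was lower in Psma7 cKO by 0.39 ± 0.16 on the log2 scale (adjusted p = 0.199, limma), and Zfp57 entry 1, whose change was higher by 0.70 ± 0.28 (adjusted p = 0.192, limma). With the Zfp57 entries summed the latter was 0.29 (adjusted p = 0.625, limma). Thus Trim28 and Zfp57 entry 1 were called in WT and not in Psma7 cKO, but the difference between genotypes did not pass the test. For Tet3 the interval of the difference ran from −0.49 to 0.21, for Dppa3 from −0.45 to 0.37, for Dnmt3a from −0.42 to 0.52 and for Kdm1b from −0.53 to 0.48.

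Loss of Psma7 was then compared with WT within each stage. In GV oocytes none of the 11 entries differed between genotypes by limma, beside 0.0994% of 11062 transcripts called higher in Psma7 cKO, 0.0181% lower and 0.118% either way, and at an unadjusted p under 0.05 there were 0 of 11 beside 10.7%. The largest differences were those of Dnmt3b, 0.41 higher in Psma7 cKO (95% interval −0.05 to 0.86, adjusted p = 0.524, limma), and Zfp57 entry 1, at −0.33 (−0.67 to 0.01, adjusted p = 0.483, limma). The first was 0.23 without WT GV replicate 3, and the second −0.21 without WT GV replicate 2 and −0.18 with the Zfp57 entries summed. Dnmt3a and Dnmt3l had nearly equal means, 14.0 ± 2.61 against 13.3 ± 1.65 FPKM and 20.1 ± 4.06 against 19.8 ± 4.36, with intervals from −0.28 to 0.41 and from −0.39 to 0.44. For Dnmt1 the means were 250.5 ± 31.6 FPKM in Psma7 cKO and 221 ± 17.1 in WT, a difference of 0.18 (−0.06 to 0.41). Dppa3 stood at 316 ± 41.3 FPKM against 370 ± 61.7 in WT (−0.22, interval −0.51 to 0.07), and the mean of Tet3 was 35.6 ± 4.55 against 38.2 ± 5.60.

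In MII eggs the transcriptomes of the genotypes differed more, with 6.53% of 9492 transcripts called higher and 1.49% lower in Psma7 cKO, or 620 and 141, which became 510 and 207 with scaling to a common median. These counts depended strongly on single libraries. They ran from 3 higher and 0 lower without WT egg replicate 3 to 1024 and 136 without Psma7 cKO egg replicate 2. With replicate number as a block they were 101 and 7. None of the 11 entries was called by limma, beside 8.02% of all in either direction, and 2 of 11 had an unadjusted p under 0.05, beside 29.4% of all. Trim28 was at 18.5, 18.4, 16.9 and 18.6 FPKM in Psma7 cKO eggs, each below the lowest WT egg at 19.8 (−0.30 ± 0.10, adjusted p = 0.0898, limma). Tet3 was at 71.4 ± 5.27 FPKM in Psma7 cKO eggs and 84.5 ± 9.61 in WT eggs, which overlapped (−0.24 ± 0.09, adjusted p = 0.133, limma). Both transcripts were thus nearer to GV levels in Psma7 cKO eggs, libraries that stood 62.1 to 92.0% of the way to WT eggs over all other transcripts, and the part of that position in the difference was not tested. Without Psma7 cKO egg replicates 3 and 4, the 2 libraries least far towards WT eggs, the difference was −0.27 for Trim28 and −0.15 for Tet3.

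The remaining genes did not pass the test between eggs of the 2 genotypes. Dppa3 was at 544 ± 65.7 FPKM in Psma7 cKO eggs and 653 ± 94.8 in WT eggs (−0.26, 95% interval −0.55 to 0.02). For Zfp57, entry 1 was at 10.2 ± 2.60 FPKM against 7.84 ± 1.84 (0.37, interval −0.11 to 0.85, or 0.10 with entries summed) and entry 2 at 3.38 ± 0.626 against 5.03 ± 2.07 (−0.50, interval −1.13 to 0.12), and the summed values were 14.3 ± 3.14 and 13.3 ± 2.73. Dnmt3a and Dnmt3l were spread more widely in Psma7 cKO eggs, from 5.51 to 8.80 and from 6.32 to 11.5 FPKM, than in WT eggs, from 5.95 to 6.72 and from 6.48 to 8.24, which was not tested. Narrow intervals were obtained for Kdm1b, at 17.3 ± 1.16 FPKM against 18.0 ± 1.24 (−0.25 to 0.14), and for Uhrf1, at 72.7 ± 8.05 against 78.4 ± 9.27 (−0.35 to 0.14).

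Ratios of genes within a library do not depend on scaling between libraries, and are given as a description. The ratio of Dppa3 to Uhrf1, the inhibitor and its target, was 2.82, 3.42, 5.67 and 3.33 in WT GV oocytes and 7.72, 7.82, 7.11 and 11.1 in WT eggs. In Psma7 cKO it averaged 3.00 ± 0.736 in GV oocytes and 7.61 ± 1.60 in eggs. Only the lowest egg library, Psma7 cKO replicate 1 at 5.53, fell below the highest GV library, WT replicate 3 at 5.67. The ratio of Dnmt1 to Uhrf1, enzyme to guide, also stood higher in eggs, at 3.08 ± 0.419 in WT and 3.43 ± 0.219 in Psma7 cKO, than in GV oocytes, at 2.24 ± 0.478 and 2.34 ± 0.243. For Dnmt3l to Dnmt3a, cofactor to enzyme, the groups ranged only from 1.24 ± 0.152 in WT eggs to 1.48 ± 0.198 in WT GV oocytes. Trim28 over summed Zfp57 was 1.01 ± 0.265 in WT GV oocytes and 1.75 ± 0.481 in WT eggs, and 1.21 ± 0.224 and 1.31 ± 0.266 in the respective Psma7 cKO groups.

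**Figure D3:**
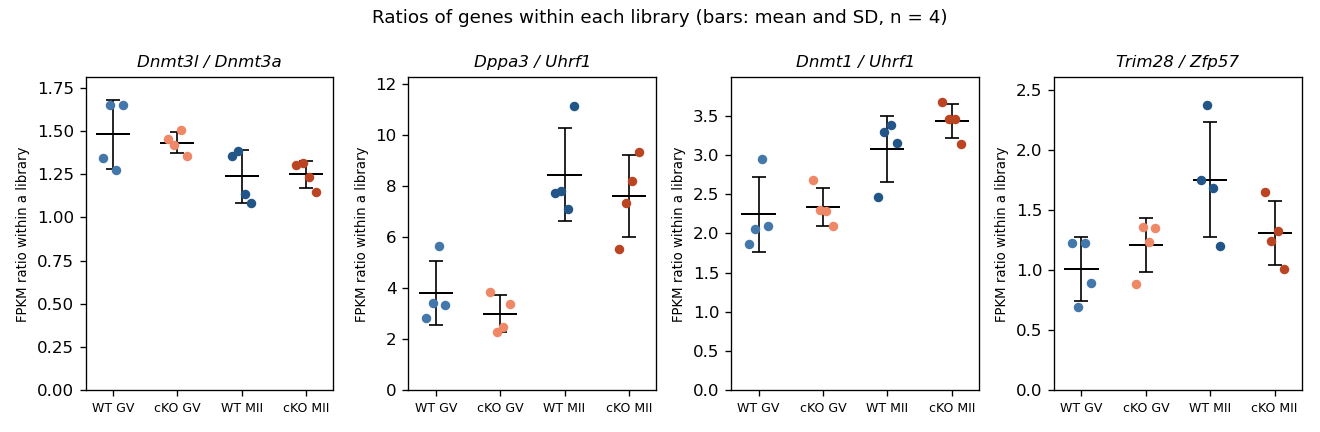
Within-library FPKM ratios (y axis, from 0) of Dnmt3l to Dnmt3a, Dppa3 to Uhrf1, Dnmt1 to Uhrf1 and Trim28 to summed Zfp57 in the 4 groups (x axis). Points are libraries and bars show mean and SD (n = 4). Dppa3 to Uhrf1 has means of 3.81 and 3.00 in GV oocytes and 8.45 and 7.61 in eggs. Dnmt3l to Dnmt3a lies between 1.08 and 1.65 in all libraries, and in Psma7 cKO every egg library lies below every GV library.

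Replicates differed in a partly shared way. WT GV replicate 3 was the lowest of its group for Dnmt3a, Dnmt3l, Dnmt3b, Uhrf1, Kdm1b and Zfp57 entry 1 and the highest for Tet3, Dppa3 and Trim28, and was also the GV library nearest to eggs over all other transcripts. Psma7 cKO GV replicate 1 was lowest for Dnmt3a, Dnmt3l, Uhrf1, Dnmt1, Kdm1b and Trim28. Psma7 cKO egg replicate 1 was highest for Dnmt3a, Dnmt3l, Dnmt3b, Dnmt1, Uhrf1 and Tet3 and lowest for Dppa3. In 10 of 16 libraries Dnmt3l lay on the same side of its group mean as Dnmt3a, and Dnmt1 and Uhrf1 did so in 11, Kdm1b in 8 and Dppa3 in 4. These are counts over libraries whose deviations within a group sum to 0, and they were not tested.

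**Figure D4:**
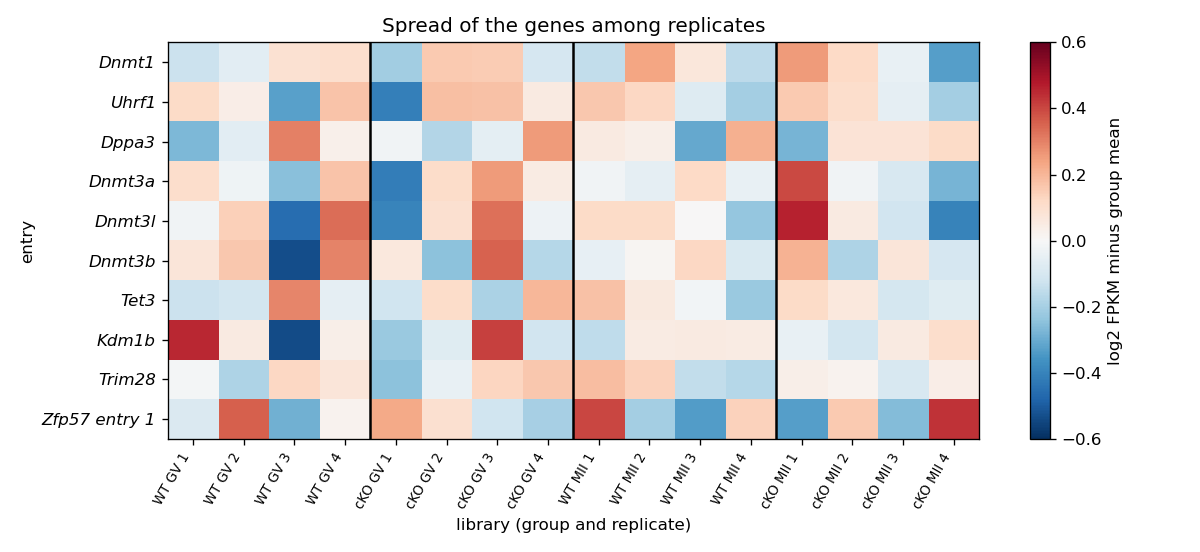
Deviation of each library from its group mean on the log2 FPKM scale (colour, red above and blue below) for 10 entries (rows) in 16 libraries (columns, grouped by genotype and stage). WT GV replicate 3 is blue for Kdm1b, Dnmt3b, Dnmt3l, Uhrf1 and Dnmt3a and red for Tet3 and Dppa3.

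Libraries primed with oligo-dT read polyadenylated RNA, so that loss of a transcript and shortening of its tail cannot be told apart in these values. Short U-rich elements near the 3′ end direct tail lengthening during maturation. The last 150 bases of 1 annotated transcript per gene (GENCODE M21, RefSeq-matched where possible) were searched on the transcript strand for TTTTAT or TTTTAAT, and the last 50 bases for the polyadenylation signals AATAAA or ATTAAA. Matches to TTTTAT or TTTTAAT were found in Dnmt1, Dnmt3a, Kdm1b and Tet3, 4 of the 10 genes, and in 3826 of 17124 transcripts (22.3%). The 30-base windows below carry these matches in capitals, and that of Dppa3, one of the 5 genes with a signal and no element match, is shown for contrast because it rose in both genotypes. In the Tet3 window the first 6 capitals are the signal and the next 6 the element. Dnmt1 and Dnmt3a have a signal 20 and 21 bases after the element, outside the printed windows, and in Kdm1b no signal was found.

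Tet3, chr6:83362375-83362404, minus strand: AATAAATTTTATatttattttttgcactca
Dnmt1, chr9:20907233-20907262, minus strand: atgtagTTTTATatgttgtaatatttcttc
Dnmt3a, chr12:3914383-3914412, plus strand: tatataTTTTATtttcgctataaatagagc
Kdm1b, chr13:47085162-47085191, plus strand: tgatgcTTTTAATcataattatgaaggtaa
Dppa3, chr6:122630243-122630272, plus strand: cagaaatttgtAATAAAagcatttttgtta

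Between the match and the annotated end lie 20 bases in Tet3, 42 in Dnmt1, 49 in Dnmt3a and 105 in Kdm1b. Among 8817 transcripts with an annotated end that were tested for maturation in WT, 37.9% of those called higher in eggs held a match, 30.4% of those not called and 17.4% of those called lower. The median log2 change was 0.02 with a match and −0.66 without. The 4 genes with a match were spread over these classes, Tet3 being called higher, Dnmt1 not called, and Dnmt3a and Kdm1b called lower. A match of these letters is a description of the annotated end, not evidence that it is used in oocytes.

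**Figure D5:**
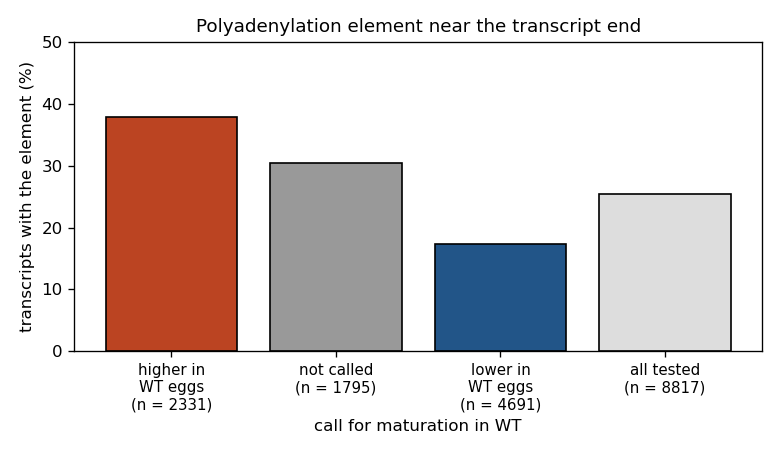
Share of transcripts (y axis, percent, from 0) whose annotated last 150 bases hold the searched element, by their call for maturation in WT (x axis), with the number of transcripts under each bar. The share is 37.9% of transcripts higher in eggs, 30.4% of those not called, 17.4% of those lower and 25.5% of all tested.

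The transcripts with the most similar profiles over the 16 libraries were sought among 10615 as those with the smallest root-mean-square difference of centred log2 values. Uhrf1 had the closest neighbour, Fbxo21 at 0.10, followed by Tet3 with Plekha8 and Kdm1b with Ppp4r1, both also at 0.10. Dnmt3a was nearest to Triobp (0.11) and Spty2d1 (0.12), Dnmt3l to Pik3c3 and Gcn1l1 (0.15 and 0.15), Dnmt3b to Tnfrsf8 (0.12), Dnmt1 to Leo1 (0.12), Dppa3 to Zfr (0.13) and Trim28 to Egln1 (0.12). No transcript came as close to Zfp57 entry 1, whose nearest was Gm33035 at 0.25, or to entry 2, whose nearest was Gm31482 at 0.53. All points share libraries, so that these distances describe the profiles only.

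Genes of the surrounding pathways were taken from lists of factors that act with these 10, and their counts are to be read beside the 26.1% of all transcripts called higher and 52.4% called lower for maturation in WT. Of demethylation and base excision repair genes, 7 entries were tested, and 6 fell and 0 rose, with a median log2 change of −2.04 beside −0.44 for all transcripts. Ung, which removes uracil from DNA, fell most, from 43.0 ± 11.9 to 5.41 ± 0.513 FPKM (−2.94 ± 0.20, adjusted p = 2.27e-07, limma). In contrast, 7 of 9 chromatin partners of de novo methylation rose and 1 fell, with a median of 0.37. Kmt2b, a histone H3 methyltransferase, rose by 1.09 ± 0.19, and Cxxc1, which binds unmethylated CpG, fell by 0.51, a call lost with scaling to a common median (−0.28), without the filter on low values, and without GV replicate 1 or 4 or egg replicate 2 or 3 (adjusted p = 0.0587 to 0.0765). Kmt2b stood near the floor in WT GV oocytes, at 1.28 ± 0.280 FPKM, and its rise ran from 0.704 to 1.315 over the alternatives.

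Maintenance partners were split, with 3 of 6 higher, led by the deubiquitinase Usp7 (0.89 ± 0.08), and 2 lower, led by Cdca7 (−1.66 ± 0.22). Of KRAB zinc finger and TRIM28 co-repressors 3 of 9 rose, led by the remodeller Chd4 (0.74 ± 0.11), and 4 fell, led by Hdac1 entry 1 (−2.46 ± 0.14). Methyl-CpG readers gave 1 rise, Zbtb33 (1.15 ± 0.14), and 2 falls, led by Mbd3 (−1.95 ± 0.21), in 3 tested. In methyl donor supply 3 of 8 rose and 5 fell, from Mat2b, a subunit of the enzyme that makes the methyl donor, at 0.84 ± 0.08, to Ahcy, which clears its product, at −2.74 ± 0.17. Genes of maternally methylated imprinted regions, 10 of which were tested, included 3 that fell, among them Peg3 (−0.72 ± 0.19), and 0 that rose. The size of the fall of Peg3, whose egg mean of 0.709 FPKM lies under the floor, depends on the floor and was −1.24 with a floor of 0.1 FPKM. The WT egg means of Ahcy (0.948 FPKM), Mbd3 (1.21) and Hdac1 entry 1 (1.37) also lie near or under the floor, which can limit the size of their falls.

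Between genotypes none of these pathway genes was called in GV oocytes by limma, beside 0.118% of all transcripts, and 0 reached an unadjusted p under 0.05, beside 10.7%. In MII eggs 3 were called, all lower in Psma7 cKO, beside 1.49% of all transcripts called lower, 6.53% higher and 8.02% either way. They were 1 of 9 chromatin partners, 1 of 9 co-repressors and 1 of 7 entries of imprinted regions. At an unadjusted p under 0.05 (limma) these lists had 4, 4 and 2 entries, beside 29.4% of all transcripts. The other lists had 3 of 6 maintenance partners, 2 of 7 repair genes, 0 of 3 readers and 0 of 7 methyl donor genes. Setd2, which writes the histone H3 mark that recruits DNMT3A in oocytes, was at 10.9 ± 1.37 FPKM against 15.8 ± 1.24 in WT (−0.54 ± 0.11, adjusted p = 0.0332, limma). Atf7ip, a partner of the histone methyltransferase SETDB1, was at 14.5 ± 0.610 FPKM against 17.7 ± 0.749 (−0.29 ± 0.07, adjusted p = 0.0475, limma), and the imprinted gene Usp29 was near the floor at 0.999 ± 0.140 against 1.56 ± 0.225 (−0.56 ± 0.14, adjusted p = 0.0471, limma). The calls of Atf7ip and Usp29 were lost without any 1 of the 8 libraries (adjusted p = 0.063 to 0.129), and that of Setd2 without any of the WT egg libraries or without Psma7 cKO egg replicate 1 or 4 (0.0527 to 0.10). Over all transcripts, too, calls dropped when a WT egg library was left out, to between 3 and 109 higher and between 0 and 8 lower. In the lists with no called gene, those with the smallest p were Pcna, the replication clamp (−0.30, adjusted p = 0.0663), Hells, a remodeller needed for methylation (−0.25, adjusted p = 0.0790), Ung (0.49, adjusted p = 0.0552), the endonuclease Apex1 (0.46, adjusted p = 0.162), Mbd3 (0.61, adjusted p = 0.178), Mat2b (−0.16, adjusted p = 0.194) and Mat2a entry 1 (−0.27, adjusted p = 0.199) by limma. Of these, Pcna (adjusted p = 0.0349) and Hells (0.0266) passed when all 16 libraries were fitted together, and Ung passed with a minimum mean of 5 FPKM (0.0454) or without Psma7 cKO egg replicate 2 (0.59, adjusted p = 0.0231, limma).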

How the data were processed

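Pools of oocytes at the GV and MII stages, either WT or Psma7 cKO, were measured by RNA-seq. Groups and replicate numbers came from the sample labels, and table columns were matched to them by name. The authors deposited FPKM values. Per the labels and the study's methods, oligo-dT primed Smart-seq2 cDNA was sequenced and ERCC spike-in RNA was added. The submitters' processing notes name TopHat2 2.1.1, Cufflinks 2.2.1 and mm10, and the gene annotation is not given in the sources used here. The table holds 0 ERCC entries, so RNA per cell was not analysed. Nothing states that libraries of a group came from separate females, and p-values measure the spread between libraries. No batch or date is given.

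Depth was estimated from the steps between low FPKM values. Exact counts were not recovered, so no counting intervals are given. Values below 1 FPKM were set to 1 and log2 values were fitted with limma 3.58.1 in R 4.3.3, with an intensity trend. Entries averaging 1 FPKM or more in the libraries of a comparison were tested, p-values were adjusted by Benjamini-Hochberg over all of them, and the threshold was 0.05. Each comparison used its 8 libraries and the interaction all 16. The script was tested on simulated data. Log2 differences are of floored values and understate changes of low transcripts. Gene positions and 3′ ends came from GENCODE M21 (GRCm38, the same assembly as mm10). Other steps used Python 3.11.15, numpy 2.4.6, pandas 2.3.3 and matplotlib 3.10.9.

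All 10 genes are named whatever their result. From the pathway lists those past the threshold between genotypes are named, or otherwise the 2 with the smallest p over both stages together, and for maturation in WT the largest rise and fall past the threshold. For each entry tested, the 2 most similar profiles were sought, of which the nearest, and for some the second, are given. The genes and lists were chosen with earlier results of these data known. Alternatives were another floor, an added pseudocount, other filters, no trend, scaling to a common median of expressed transcripts, all libraries in one fit, summed entries, replicate number as a block and each library left out. The joint removal of 2 libraries, and the alternatives for pathway genes, were added after seeing the data.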

Additional observations from a re-analysis of the deposited data

Results flagged for a closer look

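In 5 of the 53 sets of 4 libraries examined, a library lay far from the other libraries of its group, where chance gives about 1 in 20. Kdm1b, the histone demethylase, was at 16.1 FPKM in WT egg replicate 1, while each of the other WT egg libraries was at 18.6. Trim28 was at 16.9 FPKM in Psma7 cKO egg replicate 3, below 18.4 to 18.6 in the others, and this library stood least far towards WT eggs over all other transcripts. Tet3 was at 46.5 FPKM in WT GV replicate 3, above 34.6 to 36.5 in the others. Dppa3 was at 445.5 FPKM in Psma7 cKO egg replicate 1, below 571 to 586. Zfp57 entry 3 was at 0.802 FPKM in WT egg replicate 1, above 0.303 to 0.318, all under the level that was tested.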

How the results depend on the processing

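The genes called higher or lower stayed at 0 under every alternative in both genotype comparisons and in the interaction. This is to be read beside the few calls over all transcripts. In GV oocytes these were 2 higher and 1 lower of 27376 without the filter, and 124 and 33 of 11062 with all 16 libraries. In eggs they were 3 and 0 of 9533 without WT egg replicate 3, and 1328 and 254 of 9492 with all 16 libraries. For the interaction they ran from 19 and 3 of 10536 to 605 and 46 of 10678. For maturation in WT the counts of the genes ran from 2 to 4 higher and from 5 to 6 lower, and in Psma7 cKO there were 2 higher and from 4 to 6 lower. Over all transcripts, scaling to a common median gave 3457 higher and 4792 lower of 10420 in WT. In Psma7 cKO it gave 3314 and 4574 of 10664. Tet3, Dppa3, Kdm1b, Dnmt3a, Dnmt3l and Dnmt3b kept their calls in both genotypes under each alternative in which they were tested, and Dnmt3b was not tested with a minimum mean of 5 FPKM. Calls of the 10 genes that were lost or gained are given beside the results. FPKM are shares, so that a change of total RNA per cell cannot be seen. With no filter most variances were exactly 0, and limma warns that its moderation is then unreliable.

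With the replicate block, 3 entries were called higher and 6 lower for maturation in WT, 2 and 5 in Psma7 cKO, and 0 elsewhere. Over all transcripts the block gave 2611 higher and 5350 lower of 10475 in WT, and 2260 and 5272 of 10748 in Psma7 cKO. Between genotypes it gave 4 and 2 of 11062 in GV oocytes and 101 and 7 of 9492 in eggs. The interaction had 53 and 7 of 10615. Deviations of libraries with the same number correlated between −0.496 and 0.285, over 0.1 in 6 of 24 pairs. Libraries with different numbers were not compared in this way, so whether the numbers pair libraries is not settled. Under the block Setd2 (adjusted p = 0.0748), Atf7ip (0.0987), Usp29 (0.105) and Psma7 (0.0515) missed the threshold in eggs. Without the filter they had 0.0957, 0.106, 0.162 and 0.122, and Psma7 also missed it (0.061 to 0.101) without any of the WT egg libraries or without Psma7 cKO egg replicate 3. Without Psma7 cKO egg replicates 3 and 4 together Setd2 (0.0582), Atf7ip (0.145) and Usp29 (0.11) missed it. Usp29 missed it with a floor of 0.1 FPKM (0.0659) or 1 FPKM added (0.0642), and Atf7ip without a trend (0.0636) or with all 16 libraries (0.0525).

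Values that changed sign were of entries not called. Scaling to a common median gave −0.006 for Dnmt3l between GV genotypes and 0.207 for Trim28, 0.201 for Zfp57 entry 1 and 0.244 for Dnmt1 for maturation in Psma7 cKO. Without Psma7 cKO egg replicates 3 and 4 together, Uhrf1 was at 0.021 between egg genotypes, Dnmt1 at 0.180 for maturation in Psma7 cKO and at 0.068 for the interaction. Without WT GV replicate 3 and Psma7 cKO GV replicate 1 together, Tet3 was at 0.039 between GV genotypes, Zfp57 entry 1 at 0.025 for maturation in Psma7 cKO, and the interaction was −0.003 for Dnmt3a and 0.081 for Kdm1b.

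With 1 library left out, GV genotype differences ran from −0.022 to 0.201 for Dnmt3a, −0.127 to 0.156 for Dnmt3l, −0.211 to 0.117 for Kdm1b, −0.007 to 0.238 for Uhrf1 and −0.423 to 0.495 for Zfp57 entry 2. Egg genotype differences ran from −0.017 to 0.208 for Dnmt3a, −0.020 to 0.267 for Dnmt3l and −0.026 to 0.169 for Dnmt1. Maturation changes ran from −0.252 to 0.566 for Zfp57 entry 2 in WT, and in Psma7 cKO from −0.126 to 0.010 for Trim28, −0.195 to 0.061 for Zfp57 entry 1 and −0.092 to 0.103 for Dnmt1. Interactions ran from −0.087 to 0.145 for Dnmt3a, −0.044 to 0.261 for Dnmt3l, −0.174 to 0.154 for Kdm1b and −0.142 to 0.053 for Dppa3. The cause of these changes was not tested.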

Other observations

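For maturation in Psma7 cKO, 23% of all transcripts were called higher and 51% lower, with a median log2 change of −0.42. Of 7 demethylation and base excision repair entries tested 7 fell and 0 rose (median −1.79), and of 9 chromatin partners of de novo methylation 5 rose and 0 fell (median 0.35). Setd2, the histone methyltransferase called lower in Psma7 cKO eggs, rose there by 0.51 ± 0.13 (adjusted p = 0.00651, limma) from GV oocytes. Among 9 entries of maternally methylated imprinted regions 4 fell, including Peg3 (−1.05 ± 0.14, adjusted p = 9.97e-05, limma). The mean of Peg3 in Psma7 cKO eggs, 0.698 FPKM, lies under the floor, so that the size of this fall and its SE depend on the floor.

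Of the oocyte markers, 3 of 12 entries were higher in Psma7 cKO eggs than in WT eggs and 0 lower, beside 6.53% and 1.49% of all transcripts. Zp3, which encodes a protein of the egg coat, was at 948 FPKM against 406 (adjusted p = 0.0203, limma). Figla, an oocyte transcription factor, was at 4.96 against 1.60 (adjusted p = 0.0311, limma), and Ooep at 2060 against 1420 (adjusted p = 0.0499, limma). In WT GV oocytes Zp3 was at 3980 FPKM and Figla at 18.5, so that their Psma7 cKO egg means lay between WT eggs and WT GV oocytes. Ooep was at 1640 in WT GV oocytes, below its Psma7 cKO egg mean. The part of library position in these differences was not tested.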
